A study of Mus musculus with 45 samples.

Results

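The genes described here are regulators of exit from the cell cycle: the Cip/Kip inhibitors Cdkn1a, Cdkn1b and Cdkn1c, the INK4 inhibitors Cdkn2a, Cdkn2b and Cdkn2c, the pocket protein Rb1, and the D cyclins Ccnd1, Ccnd2 and Ccnd3. They were chosen by name, with earlier results of these data known, and are 10 of 35675 genes, each measured as the sum of the estimated counts of its transcripts. All 10 passed the filter on low counts, which left 17325 genes for testing.

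Poly-A RNA of 45 mouse cultures was sequenced, in 15 groups of 3, all with the genotype Tg:Pax7-nGFP/C57BL6;DBA2, in which a nuclear green fluorescent protein reports Pax7. Mouse embryonic fibroblasts (MEFs) were taken untreated, after 2, 4, 6, 8 or 10 days of doxycycline (Dox) with MyoD expressed and no other addition (called MyoD alone here, and myotubes in the labels), or after the same days of Dox together with F/R/C (labelled as muscle fibres with progenitor cells). Bulk induced myogenic progenitor cells (iMPCs) had received 13 days of Dox with F/R/C and were then kept in medium with F/R/C. The bulk iMPCs and bulk primary myoblasts from skeletal muscle were each matched by a group sorted by flow cytometry for Pax7-GFP. The days of Dox are recorded here for the bulk iMPCs and not for the sorted ones. The labels do not spell out F/R/C, how MyoD was delivered, the age of the animals, or whether the 3 replicates came from separate animals or cultures, so that p-values measure the spread between these samples, part of which may be technical.

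D cyclins bind Cdk4 and Cdk6, and the resulting kinases phosphorylate the pocket proteins, which otherwise hold E2F transcription factors in check and keep S-phase genes low. INK4 proteins bind Cdk4 and Cdk6 alone, while Cip/Kip proteins bind cyclin-CDK complexes more broadly. In muscle, p21 (Cdkn1a) and p57 (Cdkn1c) are known to act redundantly in the cell cycle exit of differentiating myoblasts. Rb1 is known to take part in this exit too, and Ccnd3 is the D cyclin that is known to stay high in differentiated muscle. The Cdkn2a gene encodes both the INK4 inhibitor p16Ink4a and, from another first exon and another reading frame, p19Arf, which acts on p53 through Mdm2.

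Libraries held 15643670 to 36279316 assigned reads, and Cdkn1c had between 11 and 61937 of them. Summed TPM of 6 myotube markers was 79.0 to 142 in MEFs and 6250 to 25700 in both arms from day 4 on. Pax7-positive iMPCs held 487 to 926, while the bulk myoblast replicates held 22600, 11400 and 790, so that replicate 3 of that group stood apart. MEF replicate 1 stood apart too, with a summed TPM of 9 proliferation genes of 576 against 216 and 211. Its mean log2 library-scaled count (CPM) over the 6 myotube markers was 2.89, against -1.38 and -1.56 in the other MEF libraries. Over the 4 progenitor markers that mean was 0.85 against -0.27 and -0.6. The Schwann, endothelial, leukocyte and epithelial marker lists reached no more than 3.82, 3.32, 16.1 and 59.1 summed TPM in any library. Y-linked RNA was present in replicate 3 of the MEF, MyoD alone, F/R/C and iMPC groups, in replicate 2 of the bulk myoblasts and in replicates 1 and 2 of the sorted myoblasts, so that equal numbers in the myoblast groups do not all mark 1 animal. Every group held libraries with and without Y-linked RNA, so that no group came from 1 animal alone. In bulk samples fewer cells of a type and less RNA per cell cannot be told apart.

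The INK4 locus shows how close together these genes lie: on chromosome 4 of GRCm38, Cdkn2a spans 89274471 to 89294653 and Cdkn2b spans 89306299 to 89311039, both on the minus strand. RefSeq promoters (GRCm38.p6) matched 6 of the 10 members, with 10 start sites. The 250 bases upstream of the p19Arf start, the p16Ink4a start and the Cdkn2b start are shown because the reads of these 3 products are compared below; they lie on the minus strand at chr4:89294620-89294869, chr4:89282193-89282442 and chr4:89311033-89311282. Capitals mark a TTTCCCGC word (an E2F motif) or a TGACGTCA word (a cyclic AMP response element).
Cdkn2a, p19Arf start: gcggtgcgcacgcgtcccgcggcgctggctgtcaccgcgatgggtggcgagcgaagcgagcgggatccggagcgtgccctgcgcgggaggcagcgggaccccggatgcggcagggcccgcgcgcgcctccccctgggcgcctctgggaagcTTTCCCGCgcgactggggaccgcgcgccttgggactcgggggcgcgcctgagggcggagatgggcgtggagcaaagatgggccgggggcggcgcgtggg
Cdkn2a, p16Ink4a start: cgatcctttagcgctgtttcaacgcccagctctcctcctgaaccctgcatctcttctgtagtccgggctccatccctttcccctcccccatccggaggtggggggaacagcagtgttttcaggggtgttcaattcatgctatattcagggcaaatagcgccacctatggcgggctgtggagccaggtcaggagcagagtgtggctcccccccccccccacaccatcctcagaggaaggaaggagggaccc
Cdkn2b: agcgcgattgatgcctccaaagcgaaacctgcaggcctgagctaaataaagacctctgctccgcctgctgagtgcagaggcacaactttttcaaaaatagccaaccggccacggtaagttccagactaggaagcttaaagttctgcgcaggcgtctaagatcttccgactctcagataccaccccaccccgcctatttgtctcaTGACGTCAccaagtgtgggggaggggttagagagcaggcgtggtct
The E2F word lay 99 to 92 bases before the p19Arf start, and the other word 46 to 39 bases before the Cdkn2b start. TTTCCCGC or TTTGGCGC, on either strand, was found in 1.3% of 32851 mouse promoters of the same length, and TGACGTCA in 1.55%. A match describes letters only.

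Most reads of Cdkn1a and Ccnd3 belonged to transcripts of their proximal start sites, from 89.5% to 94.5% (group means) for Ccnd3. The 250 bases before these starts, on the plus strand at chr17:29093519-29093768 and chr17:47593217-47593466, are shown because both genes rose within 2 days of Dox. The letters CAGCTG, the E-box form often bound by MyoD, were in neither, nor in any of the 10 member promoters, against 13.0% of all promoters. With so few promoters this absence is not a result about the members. Cdkn1c and Rb1, which also rose, had no promoter to search, and sites outside the 250 bases were not searched. The looser form CANNTG, which 66.2% of all promoters held, was present before the proximal Cdkn1a start and the Cdkn2b start but not before the Ccnd3 start. No motif is marked in these sequences.
Cdkn1a, proximal start: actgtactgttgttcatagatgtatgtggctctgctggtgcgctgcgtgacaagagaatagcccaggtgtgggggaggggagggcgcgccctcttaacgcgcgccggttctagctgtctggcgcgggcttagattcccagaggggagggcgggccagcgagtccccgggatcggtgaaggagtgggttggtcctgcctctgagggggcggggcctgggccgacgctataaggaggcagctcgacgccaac
Ccnd3, proximal start: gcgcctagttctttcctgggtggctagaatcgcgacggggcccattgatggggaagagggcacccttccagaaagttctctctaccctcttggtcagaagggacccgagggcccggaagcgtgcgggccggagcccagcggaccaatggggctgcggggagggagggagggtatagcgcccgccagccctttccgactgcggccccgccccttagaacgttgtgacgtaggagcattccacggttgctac

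Levels per length differed widely within each family. In MEFs the Cip/Kip sum of 538 ± 54.5 TPM (SD, n = 3, as for all groups below) was 88.0% Cdkn1a, 8.92% Cdkn1c and 3.07% Cdkn1b. The 3 D cyclins together made 1250 ± 268 TPM in MEFs, split into 41.8% Ccnd1, 38.3% Ccnd2 and 19.8% Ccnd3. Rb1 was at 11.1 ± 2.30 TPM and Cdkn2a at 462 ± 185 TPM there. Across all 45 libraries, library-scaled counts (CPM) spanned a factor of 6.46 for Cdkn1b and 7358 for Cdkn1c, with 84.6 for Ccnd2 and 159 for Cdkn2b between them. When the 15 groups were put in order of mean CPM, most of the 14 neighbouring pairs overlapped in their libraries: 14 for Cdkn1b, Cdkn2a, Cdkn2c and Ccnd1, 13 for Cdkn2b, Rb1, Ccnd2 and Ccnd3, 12 for Cdkn1c and 10 for Cdkn1a. The order is therefore a sequence of broad levels rather than 15 separate steps.

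**Figure D1:**
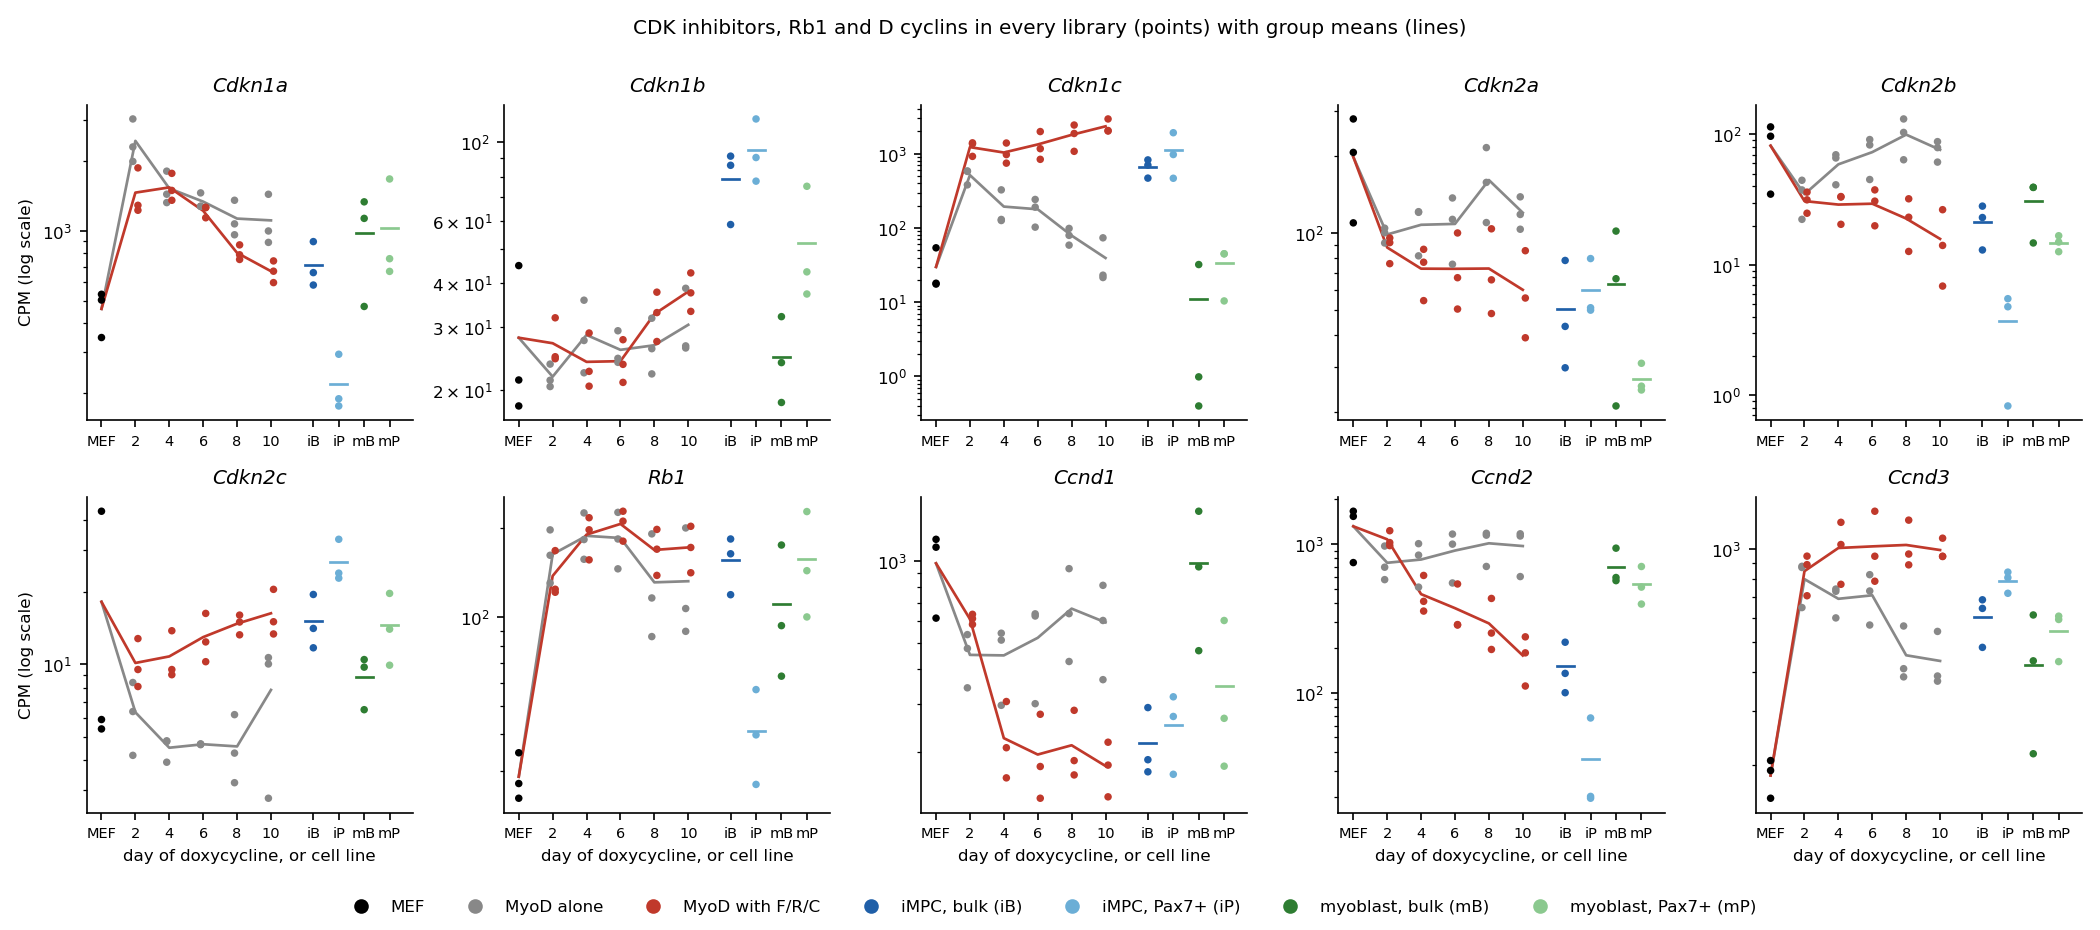
Level of each of the 10 genes (CPM, log axis) in every library; points are libraries, lines join group means over the day of Dox, and the 4 columns at the right are the bulk iMPCs (iB), Pax7-positive iMPCs (iP), bulk myoblasts (mB) and Pax7-positive myoblasts (mP). Cdkn1c separates the arms most, from 21.5 to 73.7 CPM with MyoD alone against 2025 to 2946 CPM with F/R/C at day 10.

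The first comparison set 2 days of Dox with MyoD expressed against untreated MEFs. No group had Dox without MyoD, so that MyoD, Dox and time in culture cannot be told apart here. Both arms rose in Cdkn1a, Cdkn1c, Rb1 and Ccnd3 and fell in Cdkn2a and Cdkn2b, and MyoD alone also fell in Cdkn2c and Ccnd1. Throughout, a gene was called if it passed 2 limits in edgeR's quasi-likelihood fit of all genes: adjusted p (Benjamini-Hochberg) below 0.05, and a change of 1 or more on the log2 scale in either direction. Log2 difference below means the fitted log2 ratio of the groups. With MyoD alone 8 of the 10 members were called against MEFs, 4 higher and 4 lower, where 22.4% of all genes were called (12.3% higher, 10.1% lower). With F/R/C the count was 6 members, 4 higher and 2 lower, against 20.4% of all genes (11.5% higher, 8.93% lower). Both comparisons share the 3 MEF libraries.

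Cdkn1a, the inhibitor p21, stood at 346, 503 and 532 CPM in MEFs and at 1992, 3037 and 2300 CPM after 2 days of MyoD alone. The groups did not overlap, and the log2 difference was 2.41 (SE 0.31, adjusted p = 3.6e-07). F/R/C libraries at day 2 held 1288, 1868 and 1226 CPM, again above every MEF library (log2 difference 1.67, SE 0.31, adjusted p = 8.2e-05). Cdkn1c, the inhibitor p57, went from 54.1, 18.0 and 17.6 CPM to 381, 587 and 579 CPM with MyoD alone and to 922, 1361 and 1404 CPM with F/R/C. MEF replicate 1 was the high one of its group. The log2 differences were 4.11 (SE 0.89, adjusted p = 0.00055) and 5.36 (SE 0.95, adjusted p = 4.9e-05), and without MEF replicate 1 they were 4.84 and 6.11.

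Rb1 had 24.3, 27.3 and 34.7 CPM in MEFs, 131, 198 and 162 CPM at day 2 of MyoD alone, and 121, 168 and 124 CPM at day 2 of F/R/C. All 6 Dox libraries lay above all 3 MEF libraries, with log2 differences of 2.51 (SE 0.35, adjusted p = 1.3e-06) and 2.26 (SE 0.35, adjusted p = 7.1e-06). Ccnd3 rose in the same libraries, from 207, 193 and 157 CPM to 647, 873 and 880 CPM with MyoD alone (log2 difference 2.11, SE 0.26) and 707, 949 and 891 CPM with F/R/C (2.2, SE 0.26). Its adjusted p-values were 1.7e-07 and 1.2e-07.

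Cdkn2b, the inhibitor p15, was at 34.8, 96.7 and 114 CPM in MEFs, at 44.5, 22.3 and 37.5 CPM with MyoD alone and at 36.1, 24.9 and 31.5 CPM with F/R/C. MEF replicate 1 lay among the Dox libraries. Its log2 differences were -1.23 (SE 0.49, adjusted p = 0.048) and -1.41 (SE 0.49, adjusted p = 0.026). Cdkn2a as a whole gave -1.01 (SE 0.40, adjusted p = 0.049) and -1.18 (SE 0.41, adjusted p = 0.024). Ccnd1 went from 616, 1121 and 1198 CPM to 536, 342 and 477 CPM with MyoD alone (log2 difference -1.11, SE 0.42, adjusted p = 0.039), against -0.68 (adjusted p = 0.22) with F/R/C. Ccnd2 and Cdkn1b were not called in either arm, at log2 differences of -0.81 and -0.37 with MyoD alone.

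These lower calls were weak ones. Cdkn2c, the inhibitor p18, rested on MEF replicate 1, which held 43.3 CPM against 5.39 and 5.90 CPM in the other MEF libraries and 4.18, 6.37 and 8.41 CPM at day 2 of MyoD alone: the log2 difference of -1.53 (adjusted p = 0.015) became 0.14 (adjusted p = 0.82) without that library. The call was also lost without MyoD day 2 replicate 1 (-1.33, adjusted p = 0.071) or replicate 2 (-1.55, adjusted p = 0.050). With MyoD alone, Cdkn2a was lost without MEF replicate 2 or 3 or any of the 3 day 2 libraries (adjusted p from 0.081 to 0.22). Cdkn2b and Ccnd1 were lost without MEF replicate 2 or 3 or MyoD day 2 replicate 2 or 3 (adjusted p from 0.082 to 0.18 and from 0.077 to 0.15). With F/R/C, Cdkn2a was lost without MEF replicate 2 or F/R/C replicate 2 or 3 (adjusted p from 0.056 to 0.14), and Cdkn2b also without MEF replicate 3 (adjusted p from 0.066 to 0.12). Without any filter on low counts, Cdkn2a, Cdkn2b and Ccnd1 missed the threshold for MyoD alone (adjusted p = 0.065, 0.064 and 0.057). Cdkn2b and Cdkn2c also missed it when only the MEF and day 2 libraries were fitted (adjusted p = 0.064 and 0.17).

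By day 10 the arms had moved to different places relative to MEFs. With MyoD alone 3 members were called, all higher, where 18.9% of genes were called, 14.3% higher and 4.64% lower: Cdkn1a (log2 difference 1.27, SE 0.30), Rb1 (2.20, SE 0.35) and Ccnd3 (1.23, SE 0.26). With F/R/C 7 members were called, against 34.8% of genes (19% higher, 15.8% lower). Cdkn1c (6.29, SE 0.99), Rb1 (2.59, SE 0.35) and Ccnd3 (2.42, SE 0.27) were higher, and Cdkn2a (-1.73, SE 0.41), Cdkn2b (-2.37, SE 0.51), Ccnd1 (-2.47, SE 0.44) and Ccnd2 (-2.88, SE 0.46) were lower. The highest adjusted p among these 10 calls was 0.0018, for Cdkn1a. Without MEF replicate 1 the F/R/C count was 9, with Cdkn1b (1.03) and Cdkn2c (1.63) added as higher, and Cdkn1c stood at 7.14.

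Within an arm, day 10 was set against day 2, a comparison added after the data were seen. With MyoD alone Cdkn1c fell by 3.71 on the log2 scale (SE 0.88, adjusted p = 0.0051) and Cdkn1a fell by 1.14 (SE 0.30, adjusted p = 0.013), 2 of 10 members where 6.26% of genes were called (4.50% higher, 1.76% lower). Without MyoD day 10 replicate 2 Cdkn1c fell by 4.52. With F/R/C Ccnd2 fell by 2.59 (SE 0.45, adjusted p = 0.00014), Ccnd1 fell by 1.79 (SE 0.43, adjusted p = 0.0028) and Cdkn1a fell by 1.13 (SE 0.30, adjusted p = 0.0061), 3 members where 16% of genes were called (9.85% higher, 6.18% lower). The Cdkn1a calls were lost without MyoD day 10 replicate 3 (-1.01, adjusted p = 0.062) or MyoD day 2 replicate 2 (-1.0, adjusted p = 0.063), and in the F/R/C arm without day 10 replicate 3 (-0.99, under the fold limit) or day 2 replicate 2 (-0.82, adjusted p = 0.071).

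The main comparison set F/R/C against MyoD alone on each day. Cdkn1c was higher with F/R/C from day 4 on, Ccnd3 from day 8 on, and Cdkn2c at days 6 and 8, while Cdkn2b, Ccnd1 and Ccnd2 were lower from day 6 on and Cdkn2a was called lower at day 8. At day 2 none of the 10 was called by edgeR, where 4.93% of genes were (2.13% higher, 2.80% lower), although 1 of them, Cdkn1a at -0.74, had an unadjusted p under 0.05. DESeq2 called none either. At day 4 the count was 1 member against 13.2% of genes (6.58% higher, 6.66% lower). At day 6 it was 5, 2 higher and 3 lower, against 15.4% of genes (8.23% higher, 7.14% lower). At day 8 it was 7, 3 higher and 4 lower, against 18.7% (9.20% higher, 9.46% lower). At day 10 it was 5, 2 higher and 3 lower, against 23.3% (9.91% higher, 13.4% lower). At day 10 all 3 libraries of one arm lay above all 3 of the other for 8 of the 10 members, where 47.9% of all genes had such a pattern. The exceptions were Cdkn1b and Rb1. The same count was 5 members at day 2 (37.8% of genes), 4 at day 4 (46.2%), 6 at day 6 (48.8%) and 8 at day 8 (46.8%).

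**Figure D2:**
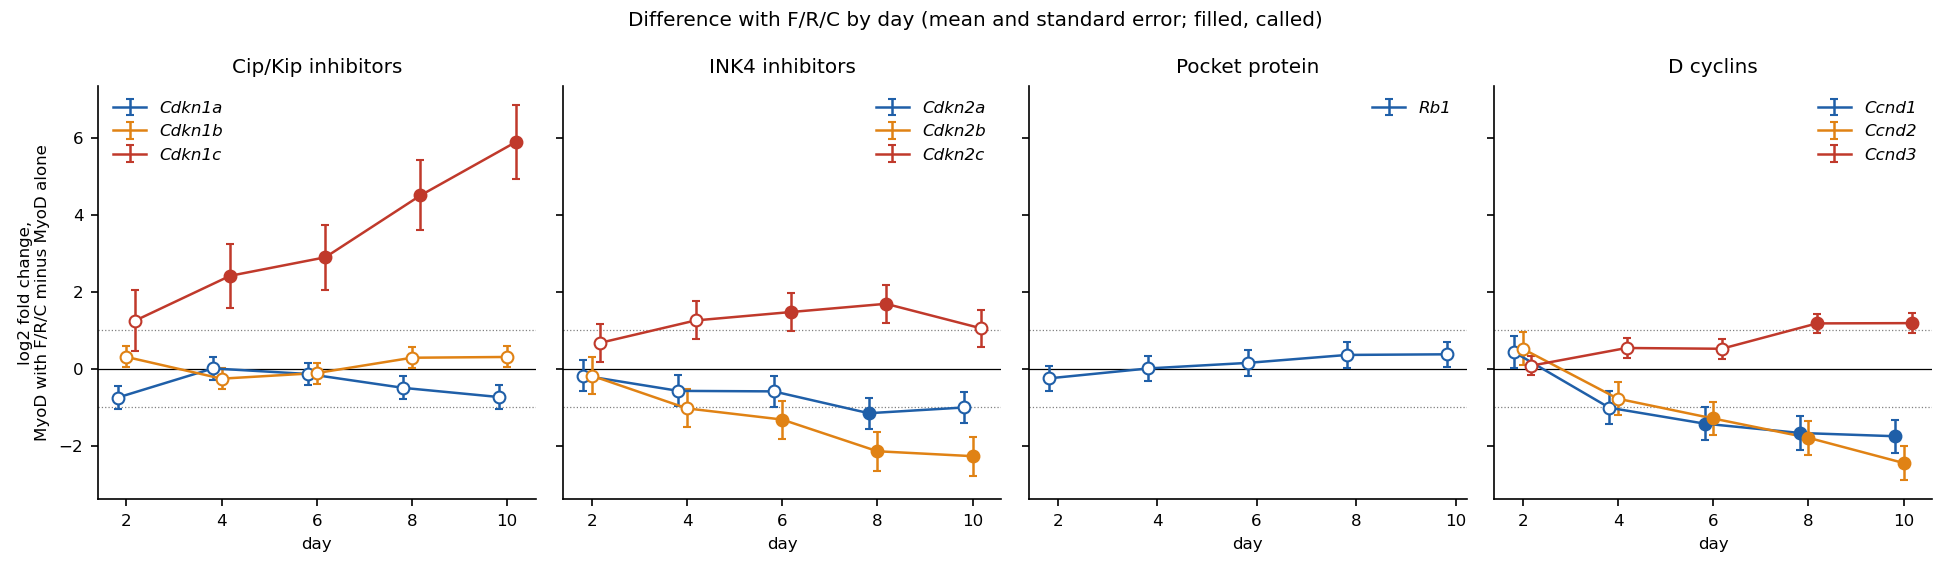
Log2 difference of F/R/C against MyoD alone on each day of Dox, with the standard error as the bar and a filled symbol where the gene was called; panels hold the Cip/Kip inhibitors, the INK4 inhibitors, the pocket protein and the D cyclins, and dotted lines mark the fold limit. Cdkn1c runs from 1.25 at day 2 to 5.89 at day 10 while Ccnd2 runs from 0.52 to -2.44.

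Among the Cip/Kip inhibitors, Cdkn1c carried the largest difference. With MyoD alone its libraries held 126, 130 and 326 CPM at day 4, 103, 191 and 242 CPM at day 6, 58.8, 98.7 and 79.6 CPM at day 8, and 23.1, 73.7 and 21.5 CPM at day 10. With F/R/C they held 748, 975 and 1396 CPM, then 841, 1171 and 1992 CPM, then 1079, 1877 and 2439 CPM, and 2025, 2946 and 2057 CPM. The arms did not overlap on any day, day 2 included. Log2 differences were 1.25 (SE 0.80, adjusted p = 0.37) at day 2, 2.42 (SE 0.83, adjusted p = 0.032) at day 4, 2.90 (SE 0.84, adjusted p = 0.011) at day 6, 4.51 (SE 0.91, adjusted p = 0.00037) at day 8 and 5.89 (SE 0.97, adjusted p = 2.4e-05) at day 10. At day 10 Cdkn1c held rank 46, 29 and 45 by TPM among all genes of the F/R/C libraries, against 5364, 1948 and 5571 with MyoD alone. The day 10 difference was 6.82 without MyoD day 10 replicate 2.

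Whether the difference changed over time was tested as an interaction, day 10 minus day 2. It was 4.64 for Cdkn1c (SE 1.17, adjusted p = 0.016), -2.97 for Ccnd2 (SE 0.62, adjusted p = 0.0055), -2.18 for Ccnd1 (SE 0.60, adjusted p = 0.023) and 1.10 for Ccnd3 (SE 0.36, adjusted p = 0.048). These were the 4 members called, where 6.01% of genes were (2.24% higher, 3.77% lower). For Cdkn2b it was -2.09 (SE 0.70, adjusted p = 0.054), just outside the threshold. Cdkn1c was narrowly lost without F/R/C day 2 replicate 1 (4.58, adjusted p = 0.050) and had an interaction of 5.55 without MyoD day 10 replicate 2. Ccnd1 was lost without F/R/C day 10 replicate 2, F/R/C day 2 replicate 1, MyoD day 10 replicate 1 or 3 or MyoD day 2 replicate 2 or 3 (adjusted p from 0.057 to 0.10). Ccnd3 was lost without F/R/C day 10 replicate 1 or 2, F/R/C day 2 replicate 1 or 3, MyoD day 10 replicate 1 or 3 or MyoD day 2 replicate 2 or 3 (adjusted p from 0.066 to 0.097). Ccnd2 passed in every such fit.

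Cdkn1a was not called between the arms on any day. At day 10 MyoD alone held 998, 1437 and 891 CPM and F/R/C 598, 741 and 669 CPM, with no overlap but a log2 difference of -0.73 (SE 0.30, adjusted p = 0.050). Its average over the 5 days was -0.42 (SE 0.13, adjusted p = 0.0076), under the fold limit. Cdkn1b, the inhibitor p27, differed by no more than 0.31 on any day, with an average of 0.11 (SE 0.12, adjusted p = 0.44). p27 is known to be controlled largely by its translation and degradation, which RNA does not show.

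Shares within the Cip/Kip family followed Cdkn1c. With F/R/C its share of the summed TPM was 52.5% ± 6.45 at day 2 and 81.8% ± 1.84 at day 10, while the family sum was 2870 ± 367 and 3650 ± 657 TPM. With MyoD alone the share was 21.7% ± 2.65 at day 2 and 3.96% ± 1.99 at day 10, and the sum was 2740 ± 491 and 1110 ± 221 TPM. Cdkn1a made up 94.4% of the family of the cells with MyoD alone at day 10 and 17.5% with F/R/C.

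**Figure D3:**
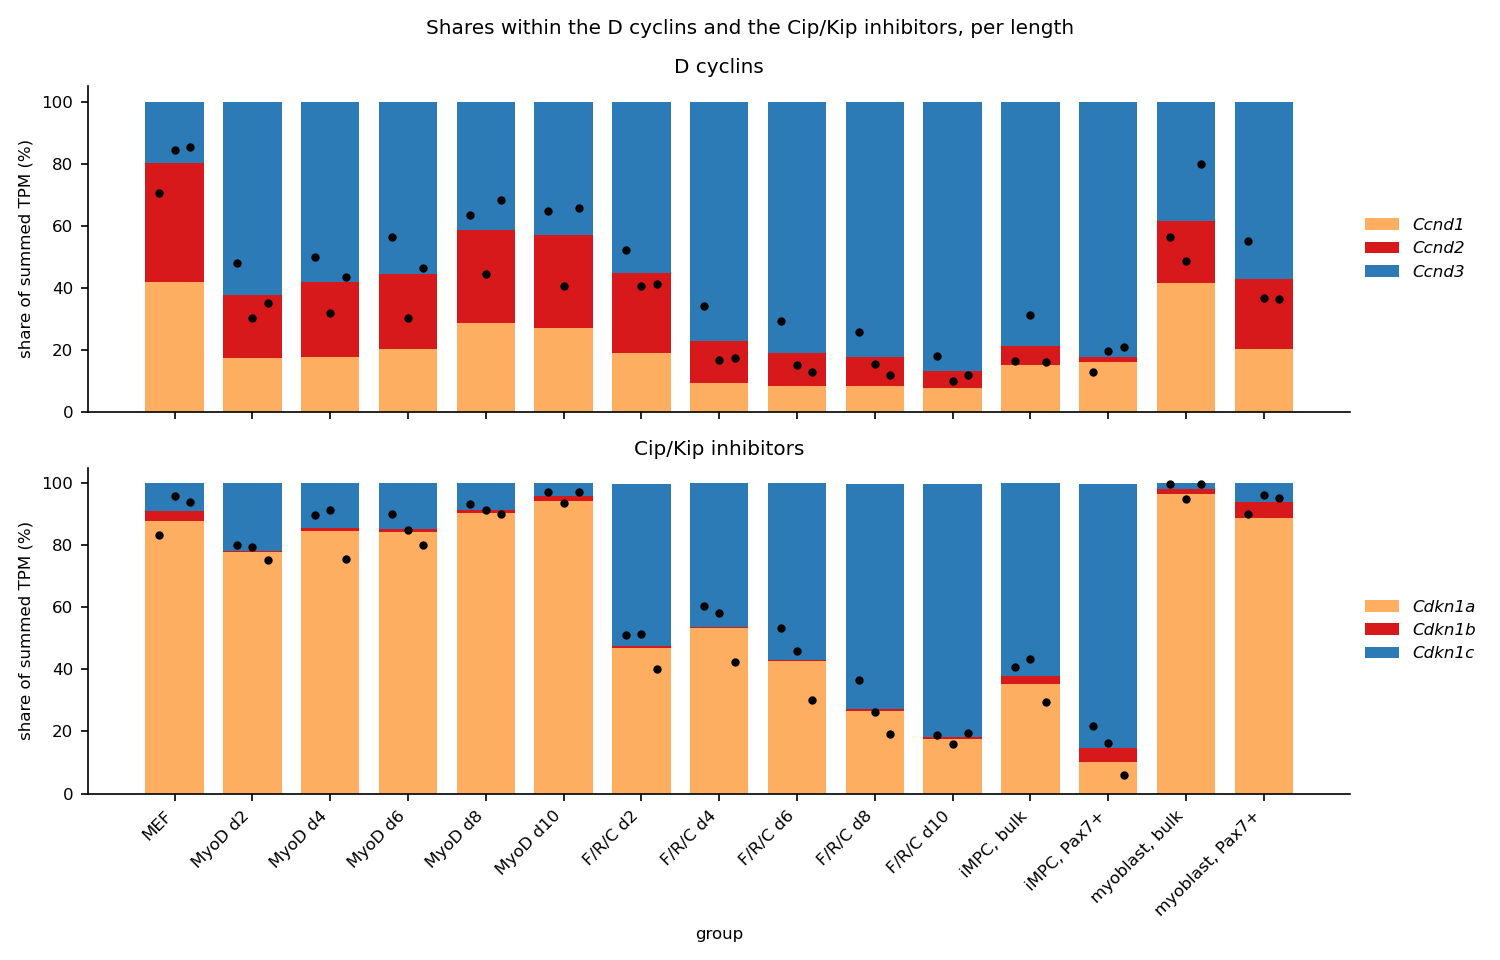
Share of each gene in the summed TPM of the 3 D cyclins (upper panel) and of the 3 Cip/Kip inhibitors (lower panel), as stacked group means over 3 libraries on an axis from 0 to 100%; black points give, per library, the lower edge of the Ccnd3 or Cdkn1c share. Ccnd3 goes from 19.8% in MEFs to 86.8% at day 10 of F/R/C, and Cdkn1c from 8.92% to 81.8%.

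The INK4 inhibitors did not move as 1 group. Cdkn2b held 79.1, 61.3 and 88.0 CPM at day 10 with MyoD alone and 14.1, 6.87 and 26.5 CPM with F/R/C. The groups were apart, with log2 differences of -1.31 (SE 0.49, adjusted p = 0.046) at day 6, -2.14 (SE 0.51, adjusted p = 0.0017) at day 8 and -2.27 (SE 0.51, adjusted p = 0.00074) at day 10. Cdkn2c went the other way: 4.67, 4.63 and 4.66 CPM with MyoD alone against 12.4, 10.3 and 16.3 CPM with F/R/C at day 6 (log2 difference 1.48, SE 0.50, adjusted p = 0.026). It was 1.69 (SE 0.50, adjusted p = 0.0093) at day 8 and 1.06 (SE 0.49, adjusted p = 0.081) at day 10, where MyoD replicate 2 held 2.78 CPM against 10.0 and 10.7 CPM in the other MyoD libraries. Averaged over the 5 days, Cdkn2b gave -1.38 (SE 0.22, adjusted p = 2.4e-06) and Cdkn2c 1.23 (SE 0.22, adjusted p = 1.3e-05).

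Cdkn2a at day 8 was at 158, 110 and 215 CPM with MyoD alone and at 65.6, 48.4 and 104 CPM with F/R/C (log2 difference -1.15, SE 0.41, adjusted p = 0.028). That call was lost without F/R/C replicate 1 or 2 or MyoD replicate 1 or 3 of day 8 (adjusted p from 0.069 to 0.16). At day 10 the value was -1.0 (SE 0.40, adjusted p = 0.046), just under the fold limit. Reads that kallisto, the authors' quantifier, assigned to the 2 first exons were then fitted separately. At day 10 p16Ink4a held 89.2, 81.7 and 96.7 CPM with MyoD alone and 30, 20.1 and 44.1 CPM with F/R/C, which do not overlap (log2 difference -1.51, SE 0.47, adjusted p = 0.011). For p19Arf the same libraries held 28.9, 21.6 and 41.6 CPM and 25.7, 18.9 and 41.2 CPM, which overlap (-0.10, SE 0.46, adjusted p = 0.88). Averaged over the days, p16Ink4a was -1.04 (SE 0.21, adjusted p = 6.2e-05) and p19Arf 0.14 (SE 0.21, adjusted p = 0.57). Without replicate 3 of every group the day 10 call of p16Ink4a was lost (-1.61, adjusted p = 0.061), and without replicate 2 the average was under the fold limit (-0.98). The difference between the products was not itself tested. The share of p16Ink4a reads was 75.5%, 79.1% and 69.9% at day 10 of MyoD alone and 53.9%, 51.5% and 51.7% with F/R/C.

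**Figure D4:**
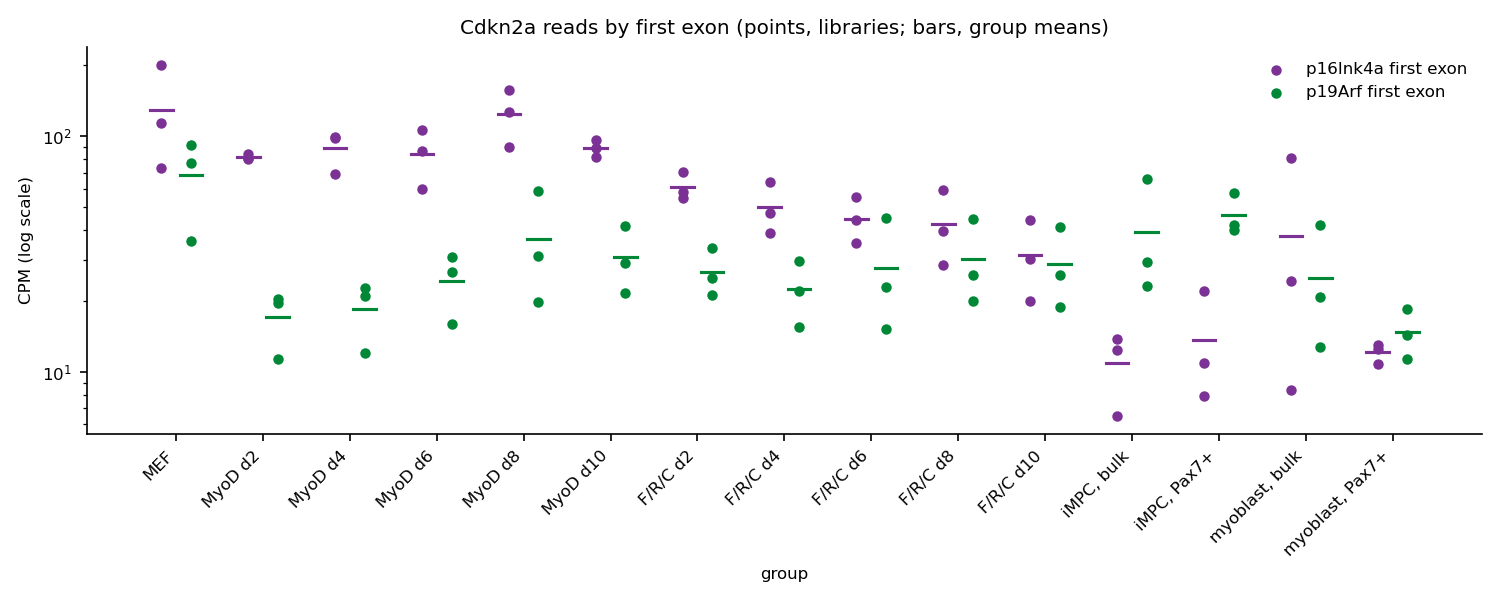
Reads of Cdkn2a by first exon (CPM, log axis) in each of the 15 groups; points are libraries and bars are group means. The p16Ink4a points with F/R/C end at 20.1 to 44.1 CPM at day 10 while those of MyoD alone stay at 81.7 to 96.7 CPM, and the p19Arf points of the arms overlap.

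Against MEFs, both products were lower at day 10 of F/R/C (p16Ink4a -2.05, adjusted p = 0.00059; p19Arf -1.26, adjusted p = 0.024), and neither was called at day 10 of MyoD alone (-0.54 and -1.15). At day 2 of MyoD alone p19Arf was lower (log2 difference -2.00, SE 0.48, adjusted p = 0.0015), from 36, 77.3 and 92.1 CPM to 19.7, 11.3 and 20.3 CPM, while p16Ink4a was -0.67 (adjusted p = 0.26). In bulk iMPCs p16Ink4a was at 13.8, 12.3 and 6.51 CPM against 73.5, 202 and 114 CPM in MEFs (-3.58, SE 0.51, adjusted p = 7.4e-07), while p19Arf gave -0.80 (adjusted p = 0.15). The share of p16Ink4a reads was 64.9% ± 8.65 in MEFs, 23.2% ± 8.12 in bulk iMPCs and 21.7% ± 5.93 in Pax7-positive iMPCs. A split of reads between transcripts rests on the quantifier: the 4 deepest libraries, which are the 3 bulk iMPC libraries and bulk myoblast replicate 2, had 0.948% or less of their Ccnd3 reads on the inner start sites, against 3.39% or more in every other library. The part of this in the p16Ink4a share of bulk iMPCs was not tested.

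Rb1 was not called between the arms on any day: log2 differences ran from -0.24 at day 2 to 0.38 at day 10 (SE 0.33 on both days), and the average was 0.14 (SE 0.15, adjusted p = 0.44). At day 10 its libraries held 107, 201 and 89.5 CPM with MyoD alone and 141, 203 and 172 CPM with F/R/C. The 2 low MyoD libraries, replicates 1 and 3, also had the lower myotube marker sums, 10300 and 6460 TPM against 20900 in replicate 2. Of the other pocket proteins, Rbl1 was higher with F/R/C at day 10 (1.11, SE 0.36, adjusted p = 0.013), and Rbl2, which is known to be the pocket protein of resting cells, was at 28.8, 27.1 and 31.1 CPM against 20.1, 17.1 and 23.5 CPM, a log2 difference of -0.52 that the fold limit left uncalled.

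The D cyclins split. Ccnd3 was at 375, 542 and 389 CPM at day 10 of MyoD alone and at 949, 947 and 1085 CPM with F/R/C, with no overlap (log2 difference 1.19, SE 0.26, adjusted p = 0.00047), and its day 8 value was 1.18 (SE 0.26, adjusted p = 0.00074). Ccnd1 was at 604, 367 and 813 CPM against 217, 137 and 178 CPM at day 10 (-1.75, SE 0.43, adjusted p = 0.0018). Ccnd2 was at 1166, 602 and 1127 CPM against 237, 111 and 185 CPM (-2.44, SE 0.45, adjusted p = 8.8e-05). At day 2 both had been in the other order, with F/R/C above MyoD alone in all libraries: 636, 614 and 584 CPM against 536, 342 and 477 CPM for Ccnd1, and 1223, 971 and 1018 CPM against 965, 574 and 696 CPM for Ccnd2. Those day 2 differences of 0.44 and 0.52 did not pass the test (adjusted p = 0.59 and 0.51). Averages over the days were -1.08 (SE 0.19) for Ccnd1, -1.15 (SE 0.19) for Ccnd2 and 0.71 (SE 0.11) for Ccnd3, whose adjusted p of 2.5e-06 did not carry it past the fold limit. The count for the average was 5 members, 2 higher and 3 lower, where 22.1% of genes were called (11.6% higher, 10.5% lower), and Ccnd1 dropped under the fold limit without F/R/C day 10 replicate 2 (-0.99), F/R/C day 8 replicate 2 (-0.99) or MyoD day 10 replicate 3 (-0.96).

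Per length, the sum of the D cyclins was 1250 ± 268 TPM in MEFs, 1150 ± 207 TPM at day 10 of MyoD alone, and 1670 ± 49.4 and 1200 ± 119 TPM at days 2 and 10 of F/R/C. In iMPCs it was 656 ± 46.2 TPM in bulk and 681 ± 67.6 TPM after sorting. In CPM, which is not per length and weighs the longer Ccnd1 and Ccnd2 transcripts more, the sums were 2470 ± 785 in MEFs, 2000 ± 429 at day 10 of MyoD alone and 1350 ± 136 at day 10 of F/R/C. Ccnd3 made up 19.8% ± 8.19, 43.0% ± 14.2 and 86.8% ± 4.22 of the TPM sums of these last 3 groups.

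Calls at days 4 and 6 were less firm than those at days 8 and 10, except for the day 8 call of Cdkn2a given above. Cdkn1c at day 4 was lost without F/R/C replicate 2 or 3 or MyoD replicate 1 or 2 (adjusted p from 0.053 to 0.11), and was 3.05 without MyoD replicate 3. At day 6, Cdkn1c was lost without MyoD replicate 1 (adjusted p = 0.054), Cdkn2c without F/R/C replicate 3 or any MyoD replicate (from 0.064 to 0.090), and Cdkn2b without any F/R/C replicate or MyoD replicate 1 or 3 (from 0.071 to 0.20). Ccnd1 and Ccnd2 at day 6 were lost without F/R/C replicate 2 or 3 or MyoD replicate 1 or 3 (from 0.069 to 0.099 and from 0.084 to 0.15). Cdkn2b at day 6 also missed the threshold with size factors by relative log expression (adjusted p = 0.057) and without a filter on low counts (0.074).

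Other genes of the pathway were counted from lists taken whole, beside 9.91% of all genes called higher and 13.4% called lower at day 10. At that day 11 of 12 E2F target genes were higher with F/R/C and none was lower (median log2 difference 1.65, against -0.07 over all genes), with Cdt1 at 2.44, Mcm7 at 1.81, Mcm2 at 1.70 and Pcna at 1.26. Of 8 CDKs and partner cyclins 5 were higher, led by Ccne1 (2.84, SE 0.34, adjusted p = 3.7e-07), while Cdk4 at 0.76 and Cdk6 at -0.44 were not called. Of 10 E2F and DP genes 2 were higher: E2f2 had 2.13, 2.63 and 1.88 CPM with MyoD alone and 125, 130 and 85.2 CPM with F/R/C (5.68, SE 0.66, adjusted p = 2.8e-07), and Tfdp2 was at 1.36. Of 6 genes for the turnover of these inhibitors and cyclins, Skp2, part of the ligase that degrades p27, was higher (2.68, SE 0.32, adjusted p = 4.4e-07) and Fbxo4 lower (-1.53). None of 7 MuvB complex genes was called. Of 9 proliferation markers 5 were higher, led by Kif11 (1.90) and Top2a (1.78).

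Set beside the members, the summed TPM of the 9 proliferation markers was 231, 28.8 and 234 at day 10 of MyoD alone and 587, 473 and 250 with F/R/C. Their sum thus lay above MyoD alone in every F/R/C library, together with the higher Cdkn1c and Ccnd3 and the lower Ccnd1 and Ccnd2. The 6 fibroblast markers summed to 3870, 991 and 4700 TPM with MyoD alone and 1210, 458 and 2010 TPM with F/R/C, and the 6 myotube markers to 10300, 20900 and 6460 TPM and 8750, 11600 and 14700 TPM, both overlapping. The part of these cell types in the members' differences was not tested.

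Bulk iMPCs were then compared with their source cells and with day 10 of F/R/C. The 3 bulk iMPC libraries and bulk myoblast replicate 2 were the 4 deepest. In these, 0.948% or less of Ccnd3 reads lay on the inner start sites, against 3.39% or more in every other library. In comparisons of bulk iMPCs with other groups, cell type therefore cannot be told apart from this difference between libraries. Bulk myoblasts shared it in replicate 2 only. Against MEFs 8 members were called, where 35.5% of genes were (19.2% higher, 16.2% lower): Cdkn1b (log2 difference 1.49, SE 0.28), Cdkn1c (4.48, SE 0.91), Rb1 (2.44, SE 0.35) and Ccnd3 (1.70, SE 0.26) were higher, and Cdkn2a (-1.98, SE 0.41), Cdkn2b (-1.94, SE 0.50), Ccnd1 (-2.19, SE 0.44) and Ccnd2 (-3.12, SE 0.46) were lower. The highest adjusted p among them was 0.0016, for Cdkn2b. Without MEF replicate 1 Cdkn2c was called too (1.49), Cdkn1b was at 2.07 and Cdkn1c at 5.29. Against day 10 of F/R/C only Cdkn1b was called, where 9.57% of genes were (3.33% higher, 6.24% lower), at 58.5, 86.0 and 91.3 CPM against 37.6, 33.3 and 42.8 CPM (1.05, SE 0.27, adjusted p = 0.0060). This value fell below the fold limit without F/R/C day 10 replicate 2 (0.96) or bulk iMPC replicate 2 (0.96) or 3 (0.91).

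Against primary myoblasts, iMPCs held far more Cdkn1c and far less Ccnd2, both in bulk and after sorting. Bulk iMPCs held 704, 470 and 827 CPM of Cdkn1c and bulk myoblasts 0.987, 32.2 and 0.400 CPM (log2 difference 5.88, SE 0.97, adjusted p = 2.9e-05). Myoblast replicate 2 was the high one, and the value was 9.95 without it. Fitting only these 2 groups gave 5.85 with an adjusted p of 0.077. Sorted iMPCs held 468, 977 and 1922 CPM and sorted myoblasts 44.8, 10.4 and 45 CPM (5.07, SE 0.93, adjusted p = 4.4e-05), and 4.48 without iMPC replicate 3.

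Ccnd2 was at 135, 218 and 99.9 CPM in bulk iMPCs against 934, 565 and 593 CPM in bulk myoblasts (-2.21, SE 0.45, adjusted p = 0.00031). After sorting it was at 19.5, 67.6 and 20.1 CPM against 703, 393 and 511 CPM (-3.90, SE 0.48, adjusted p = 1.1e-07), and -4.72 without iMPC replicate 2. No iMPC library reached the lowest myoblast library in either pair.

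In bulk, 4 members were called, where 19.6% of genes were (10.9% higher, 8.70% lower). The other 2 were Cdkn1b, higher at 1.66 (SE 0.28, adjusted p = 3.4e-05), and Ccnd1, lower at -2.19 (SE 0.44, adjusted p = 0.00030) with 169, 290 and 187 CPM against 950, 468 and 1518 CPM. After sorting, 6 members were called, where 30% of genes were (12.4% higher, 17.6% lower). Cdkn1a was at 175, 293 and 188 CPM in sorted iMPCs and 758, 668 and 1673 CPM in sorted myoblasts (-2.24, SE 0.31, adjusted p = 7.8e-07). Rb1 was at 27.1, 39.9 and 56.8 CPM against 100, 144 and 228 CPM (-1.93, SE 0.34, adjusted p = 2.8e-05). Cdkn2b was at 4.77, 5.50 and 0.827 CPM against 16.7, 12.6 and 14.9 CPM (-1.98, SE 0.52, adjusted p = 0.0022, and 0.053 when only these groups were fitted).

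Besides Cdkn1c, Cdkn2a was higher in sorted iMPCs, at 79.4, 51.0 and 49.9 CPM against 31.0, 25.2 and 24.3 CPM (1.16, SE 0.41, adjusted p = 0.019), a call lost without iMPC replicate 1 (0.92, adjusted p = 0.095) or myoblast replicate 3 (1.09, adjusted p = 0.064). By first exon, p19Arf was at 57.4, 40.1 and 42.0 CPM against 18.4, 14.4 and 11.4 CPM (1.66, SE 0.48, adjusted p = 0.0046, and 0.063 without replicate 1 of every group) and p16Ink4a gave 0.17 (adjusted p = 0.79). Ccnd1 (-0.48, adjusted p = 0.37), Ccnd3 (0.54, adjusted p = 0.079) and Cdkn2c (0.87, adjusted p = 0.14) were not called, and Cdkn1b at 0.87 (adjusted p = 0.0088) was under the fold limit. Ccnd3 nonetheless made up 82.3% ± 4.43 of the D cyclin TPM in sorted iMPCs and 57.2% ± 10.8 in sorted myoblasts, on sums of 681 ± 67.6 and 699 ± 232 TPM.

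**Figure D5:**
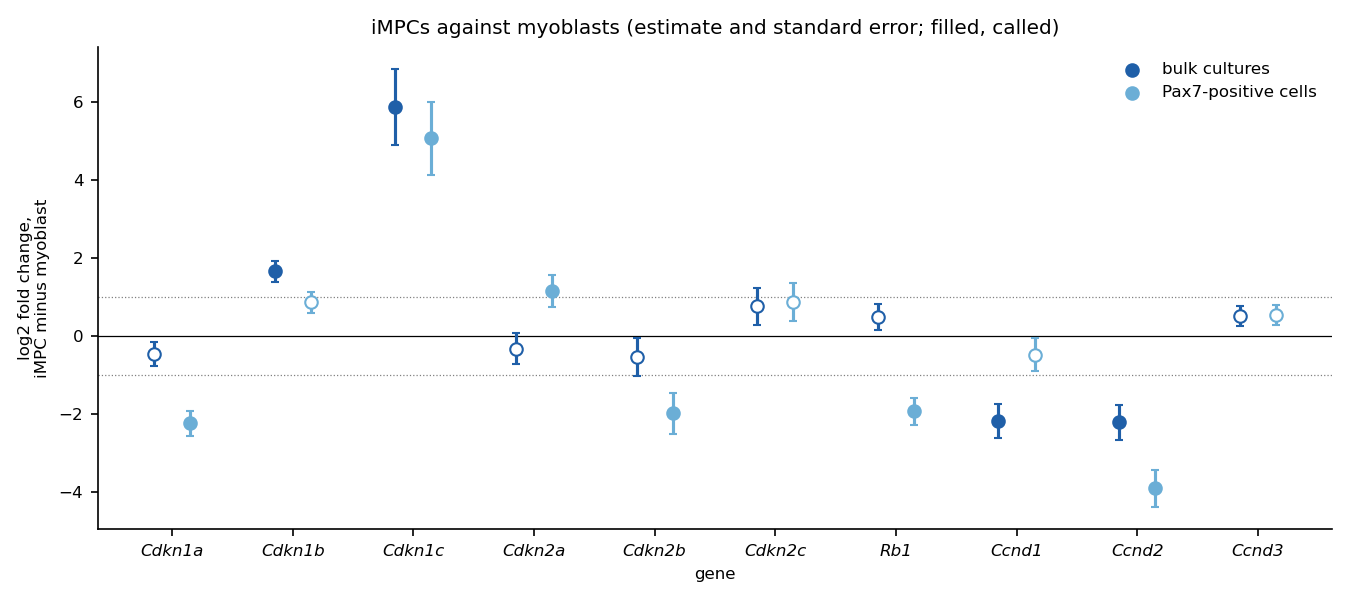
Log2 difference of iMPCs against myoblasts for the 10 genes, in bulk and among Pax7-positive sorted cells, with the standard error as the bar and a filled symbol where the gene was called. Cdkn1c is at 5.88 and 5.07 and Ccnd2 at -2.21 and -3.90, while Rb1 is at 0.49 in bulk and -1.93 after sorting.

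Sorted cells were then set against bulk cells. The median step between transcript length and effective length was 180.03 bases in the sorted libraries and about 152.81 bases in bulk. Sorting therefore cannot be told apart from other differences between these libraries. Pax7-positive iMPCs against bulk iMPCs had 4 members called, all lower, where 30.3% of genes were called (9.88% higher, 20.5% lower): Cdkn1a (-1.70, SE 0.31, adjusted p = 3.6e-05), Cdkn2b (-2.52, SE 0.53, adjusted p = 0.00023), Rb1 (-1.92, SE 0.34, adjusted p = 3.5e-05) and Ccnd2 (-2.08, SE 0.45, adjusted p = 0.00030, and -2.88 without sorted replicate 2). Rb1, at 164, 119 and 184 CPM in bulk, was at 27.1, 39.9 and 56.8 CPM in the sorted cells, beside 24.3 to 34.7 CPM in MEFs. Cdkn1c (0.75) and Ccnd3 (0.39) were not called. In the same comparison all 12 E2F targets were higher (median 1.95, against -0.13 over all genes), with Mcm2 at 2.63 and Cdt1 at 2.43, Cdk4 was higher at 1.67 (SE 0.22, adjusted p = 5.0e-07), Rbl1 at 1.05, and 5 of 6 myotube and 4 of 6 fibroblast markers were lower. Myotube marker sums were 487 to 926 TPM in the sorted cells and 11200 to 14700 TPM in bulk, and the part of removed myotubes in the lower Rb1 and Cdkn1a was not tested.

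Sorted against bulk myoblasts had 3 members called, where 6.23% of genes were (2.20% higher, 4.03% lower): Cdkn1b was higher (1.06, SE 0.27, adjusted p = 0.011), and Cdkn2a (-1.23, SE 0.41, adjusted p = 0.044) and Ccnd1 (-1.49, SE 0.43, adjusted p = 0.021) were lower. No gene of the whole table was called when only these 2 groups were fitted, and the 3 members then had adjusted p-values of 0.46, 0.50 and 0.49. Cdkn1b was lost without sorted replicate 2 (0.72) or bulk replicate 3 (0.88), Cdkn2a without any sorted replicate or bulk replicate 1 or 3 (-0.69 to -1.35), and Ccnd1 without sorted replicate 2 or 3 or bulk replicate 1 or 3 (-1.03 to -1.50). Ccnd1 was -2.15 without sorted replicate 1.

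Whether iMPCs differed from myoblasts by another amount after sorting was tested as an interaction, sorted minus bulk, added after the data were seen. It was called for 5 members, where 24.1% of genes were (9.87% higher, 14.2% lower): Rb1 (-2.42, SE 0.48, adjusted p = 0.00028), Cdkn1a (-1.78, SE 0.43, adjusted p = 0.0017), Ccnd2 (-1.70, SE 0.61, adjusted p = 0.030), Ccnd1 (1.71, SE 0.60, adjusted p = 0.027) and Cdkn2a (1.49, SE 0.57, adjusted p = 0.043). For Cdkn1c it was -0.81 (SE 1.12, adjusted p = 0.62). Rb1 was the member that passed in every fit. Cdkn1a had an adjusted p of 0.085 when only these 4 groups were fitted, where Ccnd1, Ccnd2 and Cdkn2a had 0.12, 0.12 and 0.16. Leaving out 1 library ended the Ccnd1 call for sorted iMPC replicate 3, sorted myoblast replicates 2 and 3, bulk iMPC replicates 1 and 3 and bulk myoblast replicate 3, and moved it to 2.37 for sorted myoblast replicate 1. It ended the Ccnd2 call for sorted iMPC replicates 1 and 3, sorted myoblast replicate 1, bulk iMPC replicate 2 and bulk myoblast replicates 2 and 3, and moved it to -2.53 for sorted iMPC replicate 2. It ended the Cdkn2a call for sorted iMPC replicate 1, sorted myoblast replicates 2 and 3, bulk iMPC replicates 1 and 3 and bulk myoblast replicates 1 and 3.

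Each member's pattern over the 15 group means of log2 CPM was set beside all other tested genes, as a description in which all points share the same libraries. Closest to Rb1 were Ppfia4 (Pearson r 0.981), Acta1 (0.975), the actin of skeletal muscle fibres, and Srpk3 (0.971). Closest to Cdkn2c were Zfp41 (0.971), Arhgap19 (0.967) and Cdc7 (0.966), the kinase that fires replication origins. For Ccnd3 they were Ralgps2 (0.969), Igf2 (0.952), a growth factor of developing muscle, and Nid2 (0.946), and for Ccnd2 Ahnak2 (0.980), Rnf14 (0.979) and Clba1 (0.977). Cdkn1a was closest to Fitm2 (0.973), Samd8 (0.966) and Wdr47 (0.965), and Cdkn1b to E130114P18Rik (0.954), Hmgxb4 (0.939) and Nfx1 (0.939). Cdkn2a was close to Bambi (0.975) and Grin2d (0.962), Cdkn2b was closest to Shisa4 (0.972), Peak1 (0.968) and Tm4sf1 (0.966), and Ccnd1 to Cyp4f16 (0.951), Tuba1c (0.951) and Acsl5 (0.947). Closest to Cdkn1c was Gm44732 (0.972), an antisense transcript inside the Cdkn1c gene, followed by Lpar4 (0.950) and Tnik (0.939). Whether strand was used in the counting is not given in the sources used here, so that reads of Cdkn1c and Gm44732 cannot be told apart.
Among the members themselves the same measure was 0.89 for Cdkn2b with Ccnd2, 0.81 for Cdkn1c with Ccnd3 and -0.85 for Cdkn2b with Cdkn2c.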

How the data were processed

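Poly-A RNA of 45 mouse cultures (15 groups of 3) was sequenced as stranded libraries with single reads of 100 bases, per the labels' protocols. Per the submitters' processing notes, the tools were bcl2fastq, Trimmomatic 0.36, kallisto 0.44 and edgeR 3.28, with build GRCm38.p6; their settings are not given in the sources used here. The authors deposited, per transcript, estimated counts, which kallisto assigns by sharing reads that fit several transcripts, and TPM values, which are scaled by transcript length and keep no depth.

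Estimated counts were summed over each gene's transcripts (GENCODE M21 names) and rounded to whole numbers. TMM scaling, a filter on low counts by group and edgeR 4.0.16's quasi-likelihood test (R 4.3.3) were used on all 45 libraries in 1 model without a replicate block, and p-values were adjusted over 17325 genes by the Benjamini-Hochberg method. The SE is the fitted log2 value divided by the square root of its F statistic. Transcripts of the 2 Cdkn2a first exons replaced the gene in a second fit. TPM served only for shares, marker sums and levels between genes. In the files, effective lengths are shorter than lengths by a median step of 180.03 bases in the 6 sorted libraries and of about 152.81 bases in all others, so that TPM of short transcripts is not on quite the same scale in both.

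The members and gene lists were chosen with earlier results of these data known. All members were named; of each other list up to 4 called genes with the smallest adjusted p were named per comparison, with Rbl1, Rbl2, Cdkn2d, Cdk2, Cdk4, Cdk6 and the members' neighbours named freely, and the 3 genes most like each member by Pearson correlation. For Cdkn2a, 1 of these 3 is not reported here.

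Same-numbered libraries deviated together (every correlation over 0.1) for F/R/C against MyoD alone at days 2, 4 and 6. The same held for MyoD alone at day 10 against day 2. Between the arms, correlations were also positive at day 8 (0.234, 0.227 and 0.079) and day 10 (0.264, 0.246 and 0.062). For F/R/C at day 10 against day 2 they were 0.19, 0.296 and 0.031. No other comparison checked had all its correlations positive. Replicate 3 of all these groups held Y-linked RNA, but no source says what a number marks. A pairing by number is thus possible, and the main fit did not use it. On data simulated for F/R/C against MyoD alone at day 10, with 200 of 17325 genes changed 4-fold, 122 were recovered (61%) with 9 false calls. In the real comparison 23.3% of genes were called, and the Benjamini-Hochberg limit depends on the share of genes changed. The 61% therefore does not describe recovery in the real comparison. Alternatives were relative log expression size factors, no filter, no fold limit, DESeq2 1.42.0, a replicate block, a fit of only the groups compared, and each library left out.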

Additional observations from a re-analysis of the deposited data

Results flagged for a closer look

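The difference between F/R/C and MyoD alone was called as not the same at day 10 and day 2 for 4 members. This was by a test of the difference itself (edgeR, day 10 minus day 2): Cdkn1c by 4.64, Ccnd3 by 1.1, Ccnd1 by -2.18 and Ccnd2 by -2.97 on the log2 scale. When single libraries were left out in turn, Ccnd2 passed in every fit, while Cdkn1c, Ccnd1 and Ccnd3 did not. For Ccnd1 and Ccnd2 the fitted difference had the other sign at day 2 (0.44 and 0.52) than at day 10 (-1.75 and -2.44). The day 2 differences did not pass edgeR's test (adjusted p = 0.59 and 0.51), so that a change of direction is not shown.

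The difference between iMPCs and myoblasts was not the same among Pax7-positive sorted cells and in bulk for 5 members, again by a test of the difference itself (sorted minus bulk): Rb1 by -2.42, Cdkn1a by -1.78, Ccnd2 by -1.7, Ccnd1 by 1.71 and Cdkn2a by 1.49. For reads of the p16Ink4a first exon it was 1.97 (SE 0.67, adjusted p = 0.022), but 0.57 (adjusted p = 0.59) without replicate 1 of every group, 2.65 without replicate 2 and 2.25 (adjusted p = 0.10) without replicate 3. When only these 4 groups were fitted, Cdkn1a, Ccnd1, Ccnd2 and Cdkn2a were no longer called (adjusted p from 0.085 to 0.16). The bulk iMPC libraries also differed from most others in depth and in the split of Ccnd3 reads between start sites. The part of that in these differences was not tested. Summed TPM of the 6 myotube markers was 487 to 926 in sorted iMPCs, 2650 to 9540 in sorted myoblasts, 11200 to 14700 in bulk iMPCs and 790 to 22600 in bulk myoblasts, and the part of these cells in the differences was not tested.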

How the results depend on the processing

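Of 87 member calls over 20 comparisons, 87 held with DESeq2 and 86 with relative log expression factors. Without a filter on low counts 81 held, and 76 held when only the groups compared were fitted. Whichever library was left out, 60 held, while 27 were lost at least once and 1 reversed. With no minimum fold all 87 held by design, because the same fit was read with a looser limit. With the replicate block 86 held: sorted minus bulk Cdkn2a was 1.32 (adjusted p = 0.055 by edgeR, against 1.49 and 0.043), and no other call changed. The cause of each change below was not tested.

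Members called were 8 for the average of 5 days and 2 for bulk iMPCs against day 10 of F/R/C with no minimum fold, 5 for MyoD day 2 against MEFs without a filter, 2 at day 4 with DESeq2, and with only the groups compared 1 at day 2, 2 at day 4, 2 for bulk iMPCs against day 10 of F/R/C, 0 for sorted against bulk myoblasts and 1 for sorted minus bulk. The interaction of Cdkn1b was 0.06 with relative log expression factors or DESeq2, 0.1 without a filter and 0.05 with only the groups compared. From TPM, p16Ink4a gave -0.02 for sorted iMPCs against sorted myoblasts and -0.01 against bulk iMPCs. From CPM instead of TPM, Ccnd3 made up 8.4% of the D cyclins in MEFs, 23.3% and 73.9% at day 10 without and with F/R/C, 62.4% and 73.9% in bulk and sorted iMPCs, and 21.2% and 39.4% in bulk and sorted myoblasts; Cdkn1c made up 76.5% of the Cip/Kip family at day 10 of F/R/C, and 45.4% and 74% in bulk and sorted iMPCs.

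Counts over all genes moved too. With only the groups compared they went from 3279 to 2019 for MyoD day 10 against MEFs, 854 to 1420 for F/R/C against MyoD alone at day 2, 3396 to 1265 for bulk and 5199 to 3424 for sorted iMPCs against myoblasts, 1080 to 0 for sorted against bulk myoblasts and 4172 to 1679 for sorted minus bulk; the interaction by day went from 1041 to 649 without a filter, and dropping the fold limit raised counts 1.37 to 2.79 times.

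With 1 library left out, members called ranged from 4 to 7 for MyoD day 2 and were 1 to 5 for the interaction by day, 1 to 3 for MyoD alone day 10 against day 2, 0 to 1 at day 4, 0 to 4 at day 6, 0 to 1 for bulk iMPCs against day 10 of F/R/C, 2 to 6 for sorted minus bulk and 0 to 5 for sorted against bulk myoblasts. Against MEFs, MyoD day 2 gave Cdkn1b from -0.63 to 0.13 and Cdkn2c from -1.97 to 0.14; MyoD day 10 gave Cdkn1b from -0.17 to 0.61, Cdkn1c from -0.43 to 1.11, Cdkn2b from -0.49 to 0.16 and Cdkn2c from -1.66 to 0.46; F/R/C day 2 gave Cdkn1b from -0.31 to 0.46 and Cdkn2c from -1.28 to 0.84. Cdkn2c ran from -0.55 to 1.63 at F/R/C day 10 and from -0.68 to 1.49 in bulk iMPCs. F/R/C against MyoD alone gave Cdkn2b from -0.41 to 0.06 and Ccnd3 from -0.03 to 0.22 at day 2, Rb1 from -0.06 to 0.18 and Cdkn1a from -0.07 to 0.17 at day 4, and Cdkn1b from -0.17 to 0.03 at day 6. The interaction by day ran from 0 to 0.31 for Cdkn1b and from -0.1 to 0.34 for Cdkn1a. Bulk iMPCs against day 10 of F/R/C gave Cdkn1a from -0.11 to 0.19, Cdkn2a from -0.74 to 0.02, Cdkn2c from -0.38 to 0.09, Ccnd1 from -0.03 to 0.45 and Ccnd2 from -0.63 to 0.03. Sorted minus bulk gave Cdkn2c from -0.07 to 0.39 and Ccnd3 from -0.3 to 0.34. Cdkn2a ran from -0.77 to 0.2 in bulk iMPCs against myoblasts, Cdkn1a from -0.44 to 0.37 in sorted against bulk myoblasts, and Ccnd1 from -0.75 to 0.18 in sorted iMPCs against sorted myoblasts.

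For the Cdkn2a products each replicate number was left out of all groups. p16Ink4a ran from -1.44 to -0.52 for F/R/C day 2 against MEFs, from -1.56 to -1.47, -1.61 to -1.3 and -1.05 to -0.98 for F/R/C against MyoD alone at day 8, day 10 and on average, from -1.87 to -1.01 for bulk iMPCs against day 10 of F/R/C, from -2.38 to -0.83 and -0.26 to 0.52 for bulk and sorted iMPCs against myoblasts, from -2.0 to -0.48 for sorted against bulk myoblasts and from 0.57 to 2.65 for sorted minus bulk. p19Arf in the same order ran from -1.58 to -1.1 at F/R/C day 2 and -1.47 to -0.92 at F/R/C day 10 against MEFs, -0.25 to 0.52 at day 6 between the arms, -1.26 to -0.18 for bulk iMPCs against MEFs, -0.34 to 1.03 for bulk iMPCs against day 10 of F/R/C, -0.29 to 1.54 and 1.59 to 1.78 for bulk and sorted iMPCs against myoblasts, -0.02 to 1.01 for sorted against bulk iMPCs, -1.1 to 0.02 for sorted against bulk myoblasts and 0.06 to 2.06 for sorted minus bulk. Lowest depth fell on Cdkn1c and Cdkn2b, with 11 and 16 reads in their lowest libraries.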

Other observations

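Genes next to Cdkn1c, which lies in an imprinted domain controlled by the noncoding RNA Kcnq1ot1, were also measured. At day 10 with F/R/C against MyoD alone, 3 of 6 neighbours were higher and 1 was lower by edgeR's test, where 9.91% of all genes were higher and 13.4% lower: Kcnq1ot1 (log2 value 1.37, adjusted p = 0.0014), Kcnq1 (2.46, adjusted p = 0.0086) and Phlda2 (2.02, adjusted p = 0.029) were higher and Slc22a18 (-2.94, adjusted p = 0.0015) was lower. Both of the last were at low levels: Phlda2 had 0.0926, 0.198 and 0.105 CPM with MyoD alone and 0.596, 0.535 and 0.494 CPM with F/R/C, and Slc22a18 had 3.15, 1.54 and 3.10 CPM and 0.318, 0.0974 and 0.565 CPM.

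Among 12 targets of p53, 4 were lower and none was higher at day 10 with F/R/C, where 13.4% of all genes were lower, with a median of -0.66 against -0.07 over all genes: Mdm2 (-1.67), the ligase of p53, Ccng1 (-1.44), Eda2r (-1.09) and Plk2 (-1.04). Cdkn1a, also a p53 target, was at -0.73 in that comparison and was not called. In sorted iMPCs against sorted myoblasts, 6 of the 12 were lower, where 17.6% of all genes were, Mdm2 at -2.08 and Ccng1 at -1.77 among them, and Cdkn1a was lower at -2.24.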
